A study of Homo sapiens with 5 samples.

Results

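Jurkat, a line established from a T-cell acute lymphoblastic leukemia, was compared by its miRNA counts with 4 other human blood lines. Meg01 is a megakaryoblastic line and K562 an erythroleukemic line, both from chronic myeloid leukemia. Raji comes from a Burkitt lymphoma and U937 from a histiocytic lymphoma with monocytic features. Total RNA, 100 ng per line, was hybridized without amplification to color-coded nCounter probes, and each line was profiled in 1 sample. The labels name no treatment and no passage for any line. With 1 sample per line there was no replicate check and no test between lines. Ratios carry 95% intervals for counting error only, which leave out the variation between cultures, RNA preparations and hybridizations.

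Each line's counts of the 654 human miRNA probes were divided by the geometric mean of a common set, the 100 probes with the highest mean count over the 5 lines, and set to a common scale, and values are scaled counts unless called raw. A probe was taken as above background where its scaled count exceeded the mean plus 2 SD of the line's 8 negative control probes. That threshold was 28.2 in Jurkat, 31.2 in Meg01, 36.4 in U937, 42.3 in K562 and 72.4 in Raji. The probes compared were those above threshold in Jurkat or in all 4 other lines. They numbered 229 of 654, and all 229 were above threshold in Jurkat, because 0 probes were above threshold in the 4 others and not in Jurkat. A line at or below its threshold entered a ratio at the threshold, so that the ratio is a lower bound and is written "at least". Another scaling multiplies all ratios against a line by one factor. Against Raji that factor was 1.96 without scaling, 1.83 with the positive controls and 1.97 with the housekeeping probes, and against K562 it was 1.52 without scaling and 1.49 with the positive controls. The other factors lay between 0.777 and 1.30. A direction or a 2-fold call is open to the scaling where such a factor carries its ratio past 1 or past 2-fold.

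A miRNA is an RNA of about the length of the sequences printed here, cut from a hairpin precursor and loaded into Argonaute. It pairs with messenger RNAs mainly through its seed, bases 2 to 8, and lowers their translation and stability. miRNAs with one seed form a family that can share targets, while the genes of a family may lie on several chromosomes. Blood lineages differ in their miRNAs, with miR-150 and miR-181a best known from lymphocytes, miR-223 from myeloid cells, miR-126 from megakaryocytes and endothelium, and miR-451 and miR-144 from erythroid cells.

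The mature sequences that the comparison turns on follow, taken from RefSeq (GRCh38.p14), with the seed in capitals. The leading group holds miRNAs over 2-fold higher in Jurkat than in every other line.
miR-363: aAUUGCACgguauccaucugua
let-7b: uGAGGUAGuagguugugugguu
miR-29c: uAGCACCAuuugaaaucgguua
miR-342-3p: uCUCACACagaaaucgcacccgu
miR-301a: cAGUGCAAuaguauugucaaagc
The next sequence belongs to the miRNA that was over 2-fold lower in Jurkat than in every other line.
miR-21: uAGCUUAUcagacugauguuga
The following 3 share a seed with one of the leading group and were not higher in Jurkat than in every other line by 2-fold.
miR-92a: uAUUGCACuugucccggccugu
let-7g: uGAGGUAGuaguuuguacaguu
miR-29a: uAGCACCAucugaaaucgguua
The last set holds miRNAs with the largest ratio against a single line, in one direction or the other.
miR-15a: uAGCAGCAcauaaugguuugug
miR-126: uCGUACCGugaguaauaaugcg
miR-23a: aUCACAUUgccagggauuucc
Mature miR-29a and miR-29c differ at 1 of 22 positions, C10U when counted from the 5′ end of miR-29a. let-7b and let-7g differ at 4 of 22 positions, and miR-363 and miR-92a at 12 of 22, all of them outside the shared seed. Over the 654 probes, 450 had a matching mature sequence.

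Of the 229 probes compared, 6 were more than 2-fold higher in Jurkat than in each of the 4 other lines (2.62%). They were miR-150, miR-363, let-7b, miR-29c, miR-342-3p and miR-301a. The counterpart in the other direction could be computed for the 88 probes above threshold in all 5 lines, and 1 of them, miR-21, was more than 2-fold lower in Jurkat than in each other line (1.14%). These percentages rest on unlike sets and are not to be set against each other. Of the 229, 103 had no ratio to Raji, because both lines read below the Raji threshold of 72.4. Those 103 could not count as higher than every line.

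miR-150 is a lymphocyte miRNA that represses the transcription factor MYB. Its scaled count was 830 in Jurkat, 9.64 in Meg01, 33.2 in Raji, 24.5 in K562 and 18.8 in U937. The 4 other lines were all below their thresholds, so the Jurkat level was at least 11.5-fold above Raji, the line with the highest threshold. The bounds against the other lines were at least 26.6-fold over Meg01, 22.8-fold over U937 and 19.6-fold over K562.

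miR-363 is the last miRNA of the miR-106a-363 cluster on chromosome X, a paralogue of the oncogenic miR-17-92 cluster on chromosome 13. It read 590 in Jurkat, 17.8 in Meg01, 47.4 in Raji, 37.9 in K562 and 25.0 in U937. Again only Jurkat was above threshold, and the lowest of the bounds was at least 8.14-fold, against Raji.

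let-7b belongs to the let-7 family, which represses RAS and HMGA2 messages and accumulates as cells mature. Its counts were 412 in Jurkat, 28.9 in Meg01, 71.0 in Raji, 22.0 in K562 and 15.7 in U937. Jurkat was the only line above threshold, at least 5.69-fold over Raji and at least 11.3-fold over U937. The Raji count lay just below the Raji threshold of 72.4, as it did for miR-301a.

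miR-29c, a family member that targets DNA methyltransferases and collagens, was above threshold in all 5 lines. It read 1602 in Jurkat, 376 in Meg01, 382 in Raji, 159 in K562 and 314 in U937. The 4 other lines lay together well below Jurkat, which was 4.19-fold higher than Raji (95% interval 3.67 to 4.81) and 10.1-fold higher than K562 (8.43 to 12.1).

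miR-342-3p lies in an intron of EVL and is abundant in lymphocytes. Its counts were 525 in Jurkat, 94.2 in Meg01, 169 in Raji, 85.6 in K562 and 113 in U937. Jurkat was 3.11-fold above Raji (2.53 to 3.85), and the other ratios were larger.

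miR-301a lies in an intron of SKA2 and shares its seed with miR-130b and miR-454. It read 247 in Jurkat, 105 in Meg01, 71.0 in Raji, 89.3 in K562 and 92.9 in U937. Jurkat was 2.37-fold above Meg01 (1.93 to 2.91), an interval that includes 2-fold.

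miR-21, which is abundant in many tumors and represses PDCD4, had the opposite pattern. Its counts were 282 in Jurkat, 1102 in Meg01, 4172 in Raji, 1942 in K562 and 702 in U937. Jurkat was the lowest line, 2.49-fold below U937 (2.19 to 2.84), 3.91-fold below Meg01 (3.48 to 4.40), 6.89-fold below K562 (6.13 to 7.76) and 14.8-fold below Raji (13.2 to 16.6). Without any scaling the ratio of U937 over Jurkat was 1.92.

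**Figure D1:**
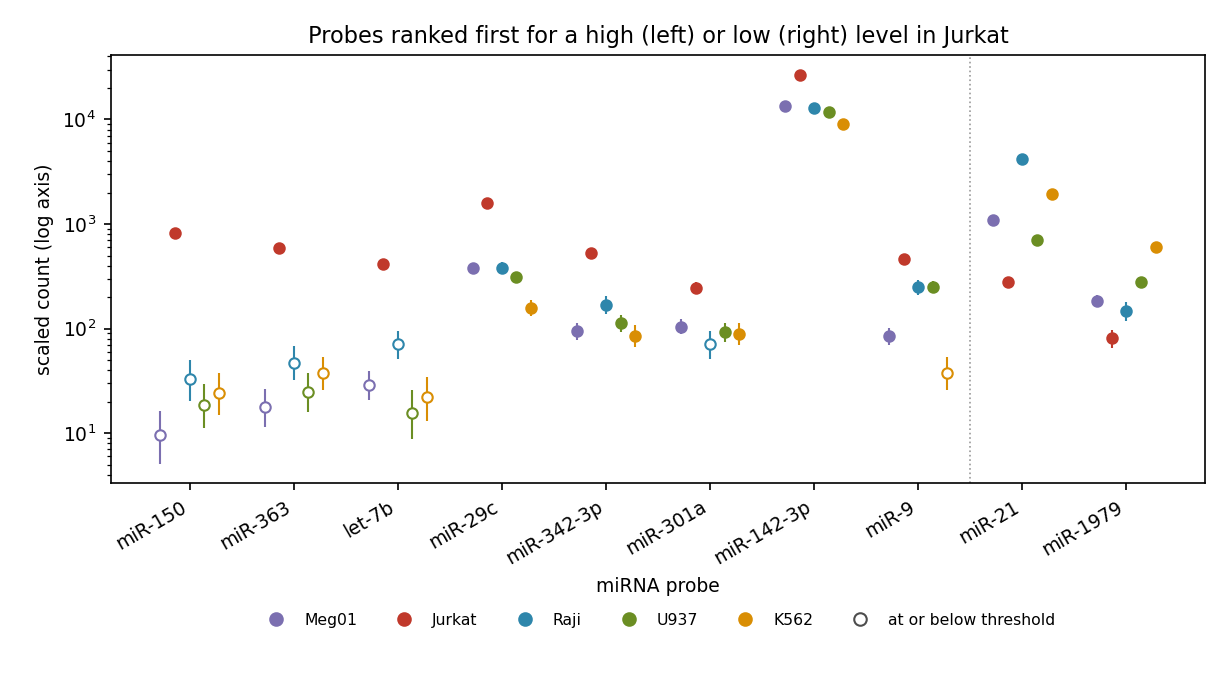
Scaled counts (log axis) of the 8 probes with the largest ratio of Jurkat over the highest other line and the 2 with the largest ratio of the lowest other line over Jurkat, 1 point per line. Bars are exact 95% Poisson intervals and open points lie at or below the line's threshold. For miR-150, miR-363 and let-7b every line but Jurkat is open, and for miR-21 the Jurkat point at 282 is the lowest.

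On either side of the 2-fold line, miR-301a (2.37-fold) and miR-342-3p (3.11-fold) were the members just inside, and miR-142-3p and miR-9 were just outside. miR-142-3p, found in all blood cells, read 26502 in Jurkat against 13579 in Meg01, 12868 in Raji, 9094 in K562 and 11760 in U937. Its ratio to Meg01 was 1.95 (1.92 to 1.99), and miR-142-5p from the same hairpin was 1.41-fold above Raji, its highest other line. miR-9 was highest in Jurkat at 461, against 250 in U937 and 248 in Raji, and its ratio to U937 was 1.84 (1.58 to 2.15). miR-7 with 1.57-fold and miR-450a with at least 1.5-fold completed the 10 probes ranked highest.

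In the other direction miR-1979 was next after miR-21. This probe, whose target was later reassigned to a Y RNA fragment, read 80.5 in Jurkat, 185 in Meg01, 147 in Raji, 598 in K562 and 278 in U937, so that Raji was 1.82-fold above Jurkat (1.36 to 2.44). The remaining 8 of that ranking, miR-136, miR-548f, miR-603, let-7e, miR-29a, miR-494, miR-548g and miR-10a, were lower in Jurkat than in the lowest other line by 1.15-fold to 1.32-fold. Scaling to the housekeeping probes or no scaling took miR-1979 to 0.927, took 7 of these 8 to between 0.627 and 0.971, and took miR-136 to 1.02, so that the place below every other line was lost for all but miR-136.

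miRNAs that share a seed with a leading member were then compared line by line. Probes differ in efficiency, so the count of one probe against another is not a ratio of miRNA levels, and only lines were compared for each probe.

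In the miR-29 family, miR-29c and miR-29a took opposite places. miR-29a read 363 in Jurkat, 439 in Meg01, 2341 in Raji, 465 in K562 and 1085 in U937. Jurkat was thus highest for miR-29c and lowest for miR-29a, by 1.21-fold against Meg01 (1.07 to 1.37), 1.28-fold against K562 (1.11 to 1.47), 2.99-fold against U937 (2.67 to 3.34) and 6.45-fold against Raji (5.80 to 7.18). The lowest place of miR-29a was lost without scaling and with the positive controls or the housekeeping probes, where the ratio of the lowest other line over Jurkat was 0.843 to 0.944. miR-29b, whose copies lie beside miR-29c on chromosome 1 and beside miR-29a on chromosome 7, stood between them. It read 118 in Jurkat, 51.2 in Meg01, 224 in Raji, 67.3 in K562 and 70.9 in U937, which put Jurkat above 3 lines and below Raji. The ratio to Raji was 0.528, and it was 1.04 without scaling and with the housekeeping probes, so that the direction against Raji turned.

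The seed of miR-363 is also that of miR-92a, miR-92b, miR-25 and miR-32. miR-92a, which had one of the highest counts in Jurkat, read 11609 there, 11611 in Meg01, 13471 in Raji, 27687 in K562 and 15789 in U937. Jurkat and Meg01 could not be told apart for miR-92a, and K562 was 2.38-fold above Jurkat (2.34 to 2.44). Jurkat-to-other ratios of miR-25 ran from 0.737 against K562 to 2.57 against Meg01, those of miR-32 from 0.848 to 1.86 and those of miR-92b from 0.534 to 1.21. None of these 4 had Jurkat above every other line by 2-fold, as miR-363 did.

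The genes beside miR-363 on chromosome X were read by probes that mostly cannot tell the X copy from another locus. The probes for miR-106a/17, miR-19b, miR-20a/b and miR-92a each cover a copy on chromosome 13 as well, and their ratios against the 4 lines lay between 0.381 and 1.23. The probe for miR-18b, which differs from miR-18a at 1 of 23 positions (A20U), read 125 in Jurkat, 39.3 in Meg01, 75.8 in Raji, 133 in K562 and 44.9 in U937. miR-18b was therefore over 2-fold higher in Jurkat than in Meg01 (3.18) and U937 (2.78), 1.65-fold above Raji and close to K562 (0.936). miR-18a, from chromosome 13, had ratios of 1.37, 0.895, 1.11 and 0.354 against Meg01, Raji, U937 and K562 in that order.

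let-7b was also the only let-7 probe that was above threshold in Jurkat alone. let-7g, with the highest count of the let-7 probes in Jurkat, read 3064 there, 226 in Meg01, 3634 in Raji, 70.9 in K562 and 3359 in U937. let-7d, let-7f and let-7i split the lines in the same way, with Jurkat, Raji and U937 in one range and Meg01 and K562 below. let-7a had K562 below, but its ratios to U937 and Meg01 were close, 1.82 and 2.15. With scaling to the total they were 1.70 and 1.67. The ratios of these 4 probes were 1.18 to 1.41 against Raji and 1.03 to 1.82 against U937. They were 2.15 to 28.9 against Meg01 and 5.51 to 28.7 against K562, where let-7i had a bound of at least 23.8. The place of Raji beside Jurkat depended on the scaling. Without scaling and with the housekeeping probes or the positive controls all 4 of these were over 2-fold higher in Jurkat than in Raji, and let-7g was higher as well, by up to 1.66-fold. miR-98, of the same family, read 301 in Jurkat and 273 in U937 and was below threshold in Meg01, Raji and K562, so that Raji was at least 4.16-fold lower.

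let-7e departed from its family. It read 78.1 in Jurkat, 193 in Meg01, 96.3 in Raji, 199 in K562 and 155 in U937, so Jurkat was the lowest line, although it stood above another line, by a ratio of 0.627 to 0.673, without scaling and with the positive controls or the housekeeping probes. Its gene neighbors that of miR-125a on chromosome 19, and miR-125a-5p read 30.6 in Jurkat, 371 in Meg01, 22.1 in Raji, 428 in K562 and 96.0 in U937. Both probes were low in Jurkat and Raji and high in Meg01 and K562.

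let-7b lies beside one copy of let-7a on chromosome 22. The let-7a probe also reads copies on chromosomes 9 and 11, and its ratios of 1.41 against Raji and 1.82 against U937 stood far from those of let-7b.

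miR-15a, miR-15b, miR-16 and miR-424 share a further seed, and miR-15a and a copy of miR-16 are neighbors on chromosome 13 in a region often deleted in chronic lymphocytic leukemia. miR-15a read 3017 in Jurkat, 22.2 in Meg01, 2524 in Raji, 1052 in K562 and 3028 in U937. Meg01 was below threshold and the other lines were high, which made miR-15a the largest ratio of all pairs, at least 96.7-fold over Meg01. miR-16, which has a further copy beside miR-15b on chromosome 3, read 3242 in Jurkat and 664 in Meg01, a ratio of 4.89 (4.54 to 5.26). miR-15b read 2867 in Jurkat and 1748 in Meg01, a ratio of 1.64 (1.56 to 1.73).

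**Figure D2:**
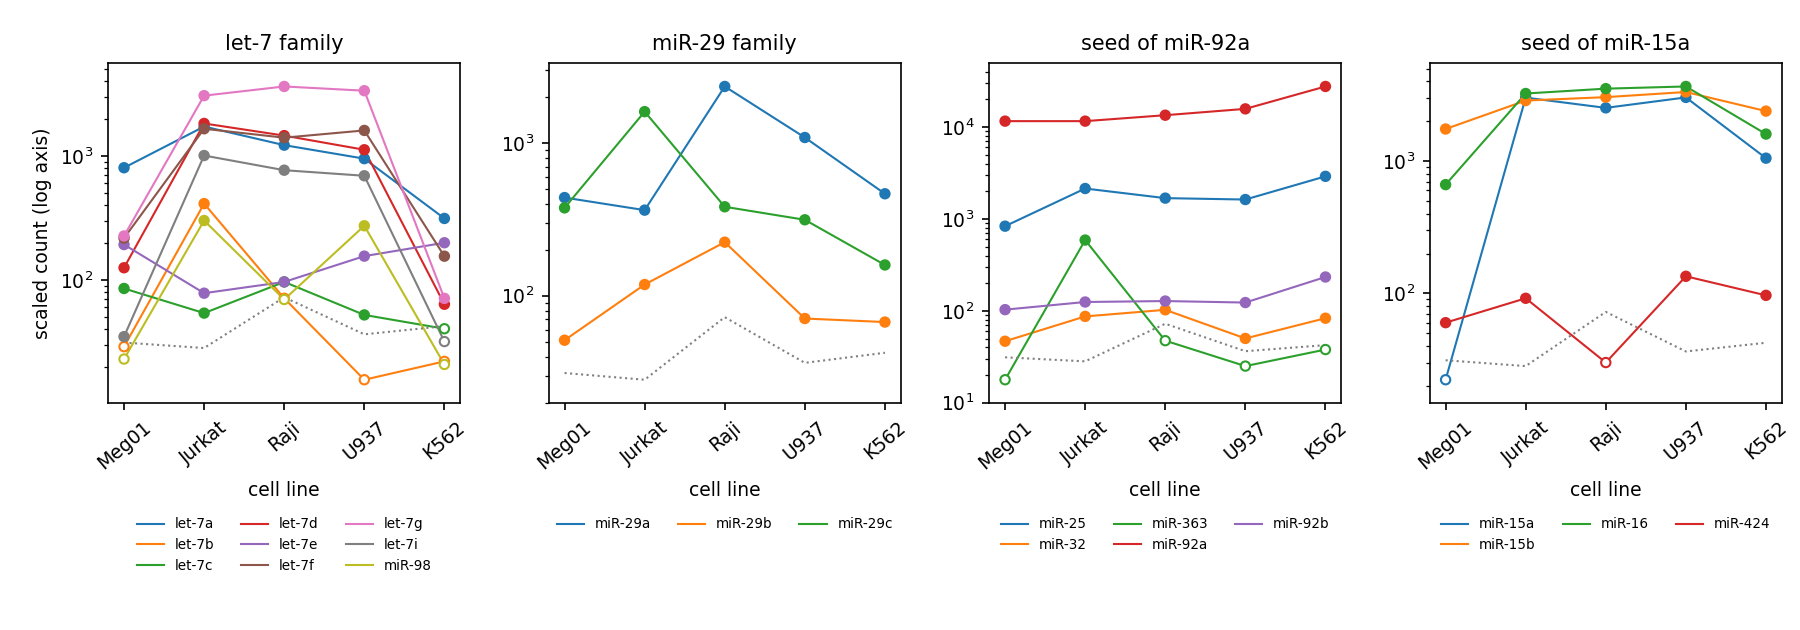
Scaled counts (log axis) in the 5 lines for members of 4 seed families, 1 line per probe, with the threshold dotted and open points at or below it. Curves are to be compared in shape and not in height: miR-29c peaks in Jurkat where miR-29a is at its lowest, miR-363 is above threshold only in Jurkat, and miR-15a is open only in Meg01.

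Against Meg01, Jurkat was over 2-fold higher for 29 of 198 probes with a ratio (14.6%), 9 of them bounds, and over 2-fold lower for 19 (9.6%). The largest ratios after miR-15a were let-7i, which read 1008 in Jurkat and 34.8 in Meg01 (28.9-fold, 21.6 to 39.6), and miR-150. The probes that Meg01 had in excess were led by miR-126, encoded in an intron of EGFL7, which read 79.7 in Jurkat and 1449 in Meg01, 18.2-fold more (14.8 to 22.5). miR-125b followed with 33.0 against 415 (12.6-fold, 9.15 to 17.7) and miR-125a-5p with 30.6 against 371 (12.1-fold, 8.70 to 17.3). In Jurkat those last counts lay next to the threshold of 28.2.

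Against Raji, Jurkat was over 2-fold higher for 16 of 126 probes (12.7%), 7 of them bounds, and over 2-fold lower for 27 (21.4%). After miR-150 and miR-363 the largest ratio was that of miR-181a, which tunes signaling by the T-cell receptor. It read 2054 in Jurkat and 270 in Raji, 7.61-fold more (6.52 to 8.94). miR-21 led the other direction. miR-155, induced on B-cell activation, read 29.0 in Jurkat, which is 36 raw counts and next to the threshold, and 401 in Raji, 13.8-fold more (9.73 to 20.2). miR-146a, an NF-κB-induced miRNA that dampens signaling through TRAF6 and IRAK1, read 42.7 in Jurkat and 325 in Raji, 7.62-fold more (5.61 to 10.5).

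The number of probes lower than in Raji moved with background and scaling. Raji had the lowest total count of the 5 lines, 66892 against 94027 to 130048 in the others, and so the largest scaling factor, 1.58 against 0.805 in Jurkat. Its negative controls averaged 36.5 after scaling and those of Jurkat 18.3, a ratio of 0.502, so the negative controls themselves stood near 2-fold lower in Jurkat. For 17 of the 27 lower probes the 95% interval of the Jurkat count lay above the Jurkat threshold. Of the 43 probes past 2-fold in either direction 37.2% were higher in Jurkat, but 89.6% of 48 were so after scaling to the positive controls and 92.5% of 53 after scaling to the housekeeping probes.

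Against U937, Jurkat was over 2-fold higher for 17 of 172 probes (9.88%), 5 of them bounds, and over 2-fold lower for 14 (8.14%), the fewest of the 4 comparisons. Of the probes above threshold in both lines, miR-181a had the largest ratio, at 248 in U937 and 8.27-fold more in Jurkat (7.24 to 9.49). U937 exceeded Jurkat most for miR-23a, miR-155 and miR-24. miR-23a and a copy of miR-24 are neighbors on chromosome 19, and the miR-24 probe also reads a copy on chromosome 9. miR-23a read 72.5 in Jurkat and 731 in U937, 10.1-fold more (8.09 to 12.7). miR-24 read 105 in Jurkat and 692 in U937, 6.61-fold more (5.47 to 8.04). miR-155 came between them with 9.10-fold (6.40 to 13.3). Without scaling, 69.7% of the 33 probes past 2-fold were higher in Jurkat, against 54.8% of 31.

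Against K562, Jurkat was over 2-fold higher for 26 of 167 probes (15.6%), 8 of them bounds, and over 2-fold lower for 28 (16.8%). let-7g led with 3064 against 70.9 (43.2-fold, 33.3 to 57.0), followed by let-7d with 1827 against 63.6 (28.7-fold, 21.8 to 38.6) and miR-181a with 2054 against 78.3 (26.2-fold, 20.5 to 34.2). K562 exceeded Jurkat most for miR-1274a, a probe whose target is a tRNA fragment, with 139 in Jurkat and 3498 in K562 (25.2-fold, 21.6 to 29.6). miR-126 came next with 1812 in K562 (22.7-fold, 18.5 to 28.2). miR-1274b, another tRNA fragment probe, read 86.2 in Jurkat and 1218 in K562 (14.1-fold, 11.6 to 17.4). The share of higher probes was 48.1% of 54, and 70.0% of 50 without scaling or with the positive controls.

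The shares of higher probes were in part set by the choice of probes, since all 229 were above threshold in Jurkat. Probes above threshold in the other line and not in Jurkat, 36 in Meg01, 5 in Raji, 31 in U937 and 28 in K562, were not compared and could not count as lower. When they were added, the higher ones were 29 of 71 past 2-fold against Meg01 (40.8%), 16 of 48 against Raji (33.3%), 17 of 34 against U937 and 26 of 65 against K562. Jurkat entered the added probes at its threshold of 28.2. The 5 added against Raji exceeded 72.4 there, so the thresholds alone made them over 2-fold lower.

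In the comparison with Meg01 the share of higher probes was 60.4% of 48, and 78.1% of 64 after scaling to the housekeeping probes and 47.7% of 44 after scaling to the total. Over the 88 probes above threshold in all 5 lines, the median ratio of Jurkat was 1.15 to Meg01, 0.736 to Raji, 0.989 to U937 and 0.729 to K562. Of those 88, 65, 61, 73 and 58 were within 2-fold of Meg01, Raji, U937 and K562 in that order.

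**Figure D3:**
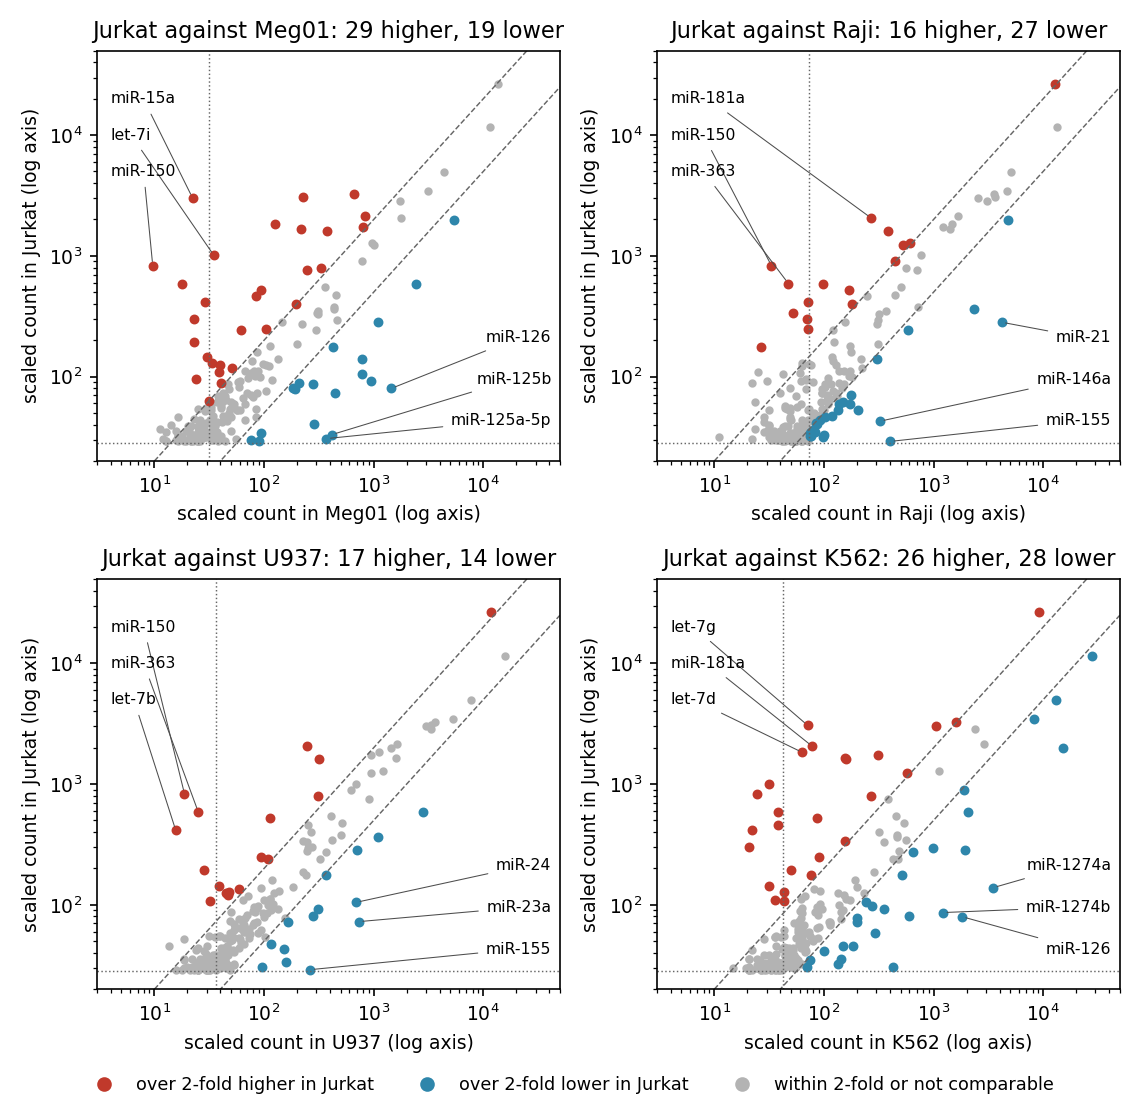
Scaled count in Jurkat (y, log axis) against each other line (x, log axis) for the 229 probes compared, with 2-fold lines dashed and thresholds dotted. Probes over 2-fold higher in Jurkat are red and lower ones blue, with the 3 largest ratios in each direction named. In the Raji panel many blue points lie just below the 2-fold line near both thresholds, and miR-181a, at 2054 in Jurkat and 270 in Raji, lies far above it.

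The 4 comparisons share the Jurkat sample and are not independent of each other. Beside the 6 leading probes, 6 were over 2-fold higher than 3 of the 4 lines, namely miR-142-3p, miR-142-5p, miR-181a, miR-296-5p, miR-7 and miR-98. Another 17 were so against 2 lines and 12 against 1. Over 2-fold lower than 3 lines were 8 probes, miR-1246, miR-125a-5p, miR-155, miR-223, miR-23a, miR-24, miR-720 and miR-1979. A further 13 were lower than 2 lines and 34 lower than 1. miR-221, miR-223 and miR-96 were over 2-fold higher than one line and over 2-fold lower than another.

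The lineage label of Jurkat was then set against marker miRNAs. Members of the T-lymphoid list went both ways. miR-150 and miR-342-3p were higher in Jurkat than in every other line under each scaling. miR-181a and miR-181b/d were higher as well, though by little against Meg01. miR-181a read 1792 in Meg01 (ratio 1.15, 1.08 to 1.21), and miR-181b/d read 127 in Jurkat and 97.9 in Meg01 (1.30, 1.03 to 1.65). With scaling to the total these ratios were 0.891 and 1.01, so that miR-181a was lower in Jurkat than in Meg01. In the other direction miR-155, also expressed in activated T cells, had ratios of 0.323 against Meg01, 0.0723 against Raji and 0.110 against U937. Those of miR-146a were 0.131 against Raji and 0.278 against U937, but 1.25 against Meg01 and at least 1.01 against K562. Those of miR-29a were 0.155 against Raji, 0.335 against U937, 0.828 against Meg01 and 0.782 against K562. Of the erythroid markers, miR-451 and miR-144 were below threshold in Jurkat. miR-223, the myeloid marker, was well above threshold in Jurkat at 590, against 97.9 in Raji, 2424 in Meg01, 2798 in U937 and 2059 in K562. Jurkat had 6.02 times the miR-223 level of Raji and 0.211 to 0.286 of that in the other lines.

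Groups of miRNAs gave the following counts, which were not tested. As a background, the median ratio of Jurkat over all comparable probes was at least 1.13 against Meg01, 0.810 against Raji, 0.981 against U937 and 0.796 against K562. Of all comparable probes 14.6%, 12.7%, 9.88% and 15.6% were over 2-fold higher than in Meg01, Raji, U937 and K562 in that order, and 9.6%, 21.4%, 8.14% and 16.8% over 2-fold lower. Without scaling and with the positive controls or the housekeeping probes 29.5% to 31.2% were over 2-fold higher than in Raji and 2.55% to 3.42% lower, and without scaling or with the positive controls 6.55% were lower than in K562. Members below threshold in Jurkat had no ratio and could not count as lower. Of 12 T-lymphoid miRNAs, 11 were above threshold in Jurkat. They were over 2-fold higher than in Meg01 for 3 of 11, than in Raji for 4 of 10, than in U937 for 6 of 11 and than in K562 for 6 of 10, and over 2-fold lower for 1, 3, 3 and 0. Their median ratios were 1.30, 1.58, at least 2.25 and at least 2.93. The list includes miR-142-3p and miR-142-5p, which are found in all blood cells and were among the higher ones against U937 and K562. The median against U937 was the ratio of miR-142-3p, and that against K562 lay between the ratios of these probes, 2.91 and 2.95. The 4 higher than in Raji became 6 of 11 with the positive controls and 7 of 11 without scaling or with the housekeeping probes, and the 3 higher than in Meg01 became 5 with the housekeeping probes. miR-150 had the highest ratio of this group against Meg01, Raji and U937, and miR-155 the lowest.

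Of 13 myeloid and megakaryocytic miRNAs, 9 were above threshold in Jurkat. Against Meg01, U937 and K562 none was over 2-fold higher in Jurkat, while 6 of 9, 5 of 7 and 7 of 8 were over 2-fold lower, with median ratios of 0.243, 0.212 and 0.268. Without scaling 5 of 9 were over 2-fold lower than in U937, with a median of 0.413, and 5 of 9 than in K562, with a median of 0.435. With the positive controls 5 of 9 were lower than in K562, with a median of 0.426. The lowest were miR-126 against Meg01 and K562 and miR-23a against U937. Against Raji 1 of 5, miR-223, was higher and 1, miR-10a, was lower. Without scaling and with the positive controls or the housekeeping probes 3 of 5 were higher and 0 lower, with medians of at least 2.02 in place of at least 1.10. Of 5 erythroid miRNAs only miR-96 and miR-183 were above threshold in Jurkat, and their ratios were 0.474 and 0.802 against K562 and 1.09 to 2.59 against Meg01 and U937. Against Raji they were 2.01 and at least 1.68.

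The let-7 family had 9 of 9 probes above threshold in Jurkat. Over 2-fold higher in Jurkat were 7 of 9 against Meg01, 2 against Raji, 1 against U937 and 7 against K562, and let-7e was over 2-fold lower than in Meg01 and K562. The let-7e call against Meg01 was lost with the housekeeping probes (0.519). Against K562 it was lost without scaling (0.595) and with the positive controls. The median ratios were at least 9.65 against Meg01, 1.25 against Raji, 1.10 against U937 and at least 9.74 against K562. The 2 higher than in Raji became 6 of 9 without scaling and with the positive controls or the housekeeping probes, with a median of 2.29 to 2.46, and the 1 higher than in U937 became 3 without scaling. Of the 4 miRNAs of B-cell activation, miR-155, miR-146a and miR-21 were over 2-fold lower in Jurkat than in both Raji and U937, while miR-9 was higher in Jurkat, by 1.84-fold over U937, 1.86-fold over Raji, 5.41-fold over Meg01 and at least 10.9-fold over K562.

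All 11 probes of the miR-17-92 cluster and its paralogues were above threshold in Jurkat. Against Meg01, 4 were over 2-fold higher, miR-363, miR-18b, miR-25 and miR-93, and against U937 2, miR-363 and miR-18b, with 0 lower in both. With scaling to the total the 4 became 2. Against K562, 6 were over 2-fold lower, a count that became 0 without scaling or with the positive controls, and miR-363 was higher. miR-363 was the highest of this group against every line. Without it, the ratios against Raji lay between 0.744 and 2.19. The 2 probes over 2-fold higher than in Raji became 4 with the positive controls and 6 without scaling or with the housekeeping probes. The 5 miRNAs known to cooperate in mouse T-cell leukemia are miR-19, here the miR-19b probe, miR-20a, miR-26a, miR-92a and miR-223. Their median ratios were 1.05, 0.985, 0.650 and 0.417 against Meg01, Raji, U937 and K562. None of the 5 was over 2-fold higher in Jurkat than in Meg01, U937 or K562, and miR-223 was higher than in Raji. Over 2-fold lower were 1 against Meg01, 0 against Raji, 1 against U937 and 4 against K562. Without scaling the 4 became 1, with a median of 0.634, and the median against Raji became 1.93.

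The 16 miRNAs known to be repressed by MYC were all above threshold in Jurkat. They were over 2-fold higher than in Meg01 for 8 of 16 and than in K562 for 7 of 14, led by miR-15a and let-7g, and over 2-fold lower for 0 and 1. The 7 were let-7a, let-7d, let-7g, miR-15a, miR-16, miR-29c and miR-150, and the 8 were the same with miR-29b. Each is also in the let-7, miR-15/16, miR-29 or T-lymphoid groups, so these counts are not separate from those of the other groups. Against Raji 2 of 13 were higher and 3 lower, which became 5 or 6 higher and 2 lower without scaling or with the control probes. The counts were near the shares of all probes, 12.7% and 21.4%. Against U937 2 of 13 went each way, and 5 were higher without scaling. The lowest were miR-146a against Raji and U937 and miR-22 against Meg01 and K562.

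**Figure D4:**
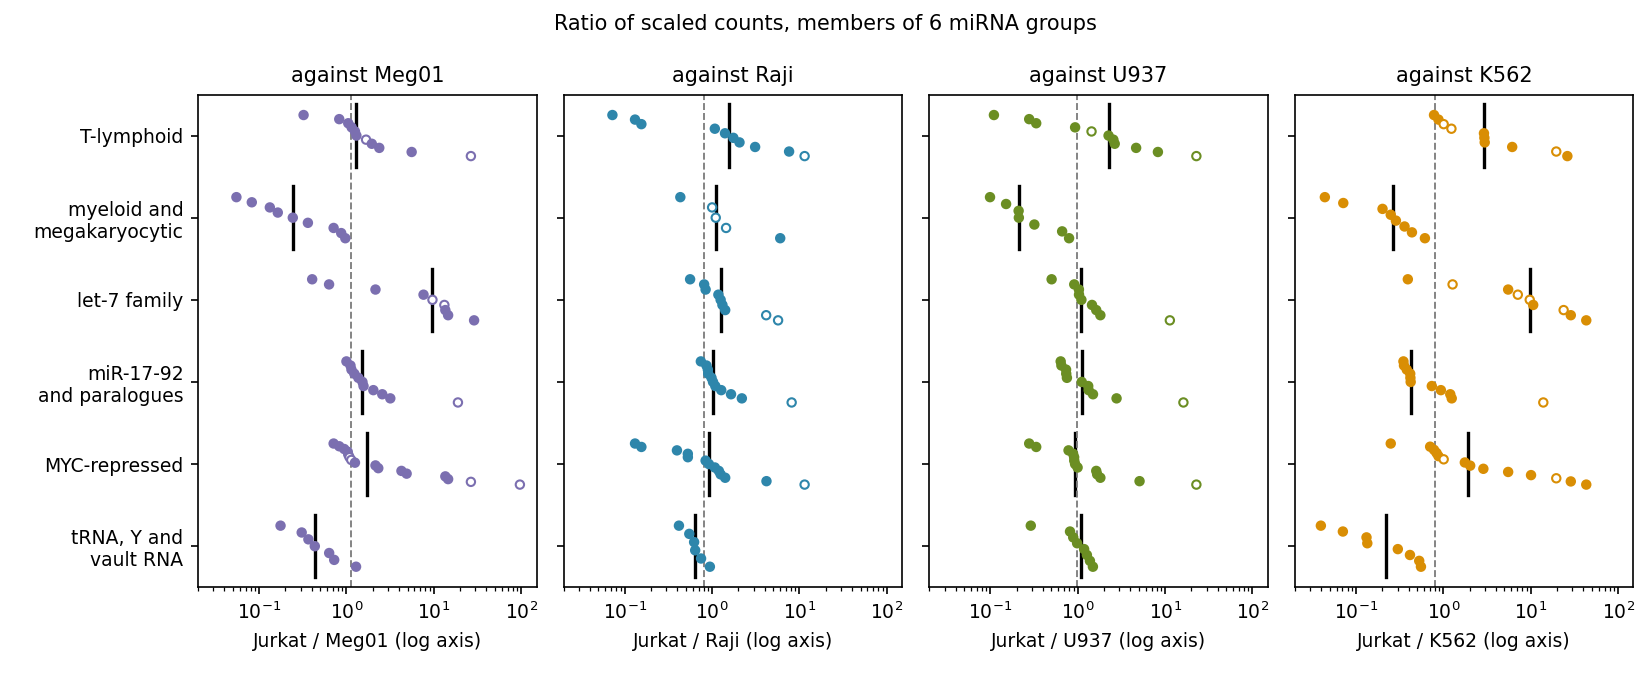
Ratio of the scaled count in Jurkat to that in each other line (log axis) for the members of 6 groups, 1 point per probe, open where the ratio is a lower bound. Black bars are medians of the group and the dashed line is the median of all comparable probes. The let-7 family stands to the right of that line against Meg01 and K562, with medians of at least 9.65 and at least 9.74, and lies near it against Raji and U937, where 6 of 9 were over 2-fold higher than in Raji under 3 other scalings.

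Among the smaller families, the miR-30 family had 5 of 5 probes above threshold, with all ratios from 0.723 to 1.20 against Meg01, U937 and K562 and from 0.342 to 0.520 against Raji. The 3 of 4 that were over 2-fold lower than in Raji became 0 of 5 without scaling and with the positive controls or the housekeeping probes, where the median was 0.735 to 0.789 in place of 0.399. In the miR-15/16 family, with 6 of 7 above threshold, no probe was over 2-fold higher than in Raji or U937, except for 2 against Raji without scaling or with the control probes, and 2 were against Meg01 and 2 against K562, miR-15a and miR-16. The ratio of miR-16 to K562 was 2.03, and 1.86 with the housekeeping probes. Over 2-fold lower was 1 of 5 against Raji, miR-503 at 0.413, which became 0.813 with the housekeeping probes, and none against the other lines. In the miR-23/27/24 clusters miR-23a and miR-24 were over 2-fold lower than in Meg01, U937 and K562, the last of which was lost without scaling and with the positive controls, and for miR-24 also with scaling to the total, while miR-27b and miR-23b stayed between 0.613 and 1.42 where a ratio could be computed. miR-27a was below threshold in Jurkat.

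miR-221 was over 2-fold higher than in Raji (at least 2.45) and K562 (2.34) and over 2-fold lower than in Meg01 (0.421) and U937 (0.478), which became 0.538 with the housekeeping probes and 0.620 without scaling, whereas the ratios of its cluster partner miR-222 were 0.528 to 1.10 against Meg01, Raji and U937 and at least 1.27 against K562. miR-148a was 3.07-fold above Meg01, and the other ratios of miR-148a and miR-148b lay between 0.832 and 1.95. miR-152 was below threshold in all 5 lines.

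Of 13 probes for tRNA, Y RNA and vault RNA fragments, 8 were above threshold in Jurkat. None was over 2-fold higher in Jurkat than in any line, and 4 of 7 were over 2-fold lower than in Meg01, 1 of 6 than in Raji, 1 of 8 than in U937 and 6 of 8 than in K562. The counts against Raji and U937 were near the shares of all probes, 21.4% and 8.14%, and those against Meg01 and K562 above 9.6% and 16.8%. The 1 lower than in Raji became 0 of 7 without scaling and with the positive controls or the housekeeping probes. Of 15 miRNAs typical of epithelium, liver and muscle, 7 were above threshold in Jurkat, as were 229 of all 654 probes. Among the 7, miR-122 and miR-429 read 36 raw counts and miR-200c 44, against a threshold of 35.0. The ratios of the 7 where both lines were above threshold were 0.425 to 1.04. The other ratios were the bounds of 3 probes against Meg01, the highest of them at least 1.24 for miR-208a.

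The 10 probes with the highest counts in Jurkat were miR-142-3p, miR-92a, miR-20a/b, miR-19b, miR-16, let-7g, miR-15a, miR-15b, miR-25 and miR-181a, by order of count, which with probes of unequal efficiency is not an order of miRNA levels. They ranged from 26502 to 2054 scaled counts. miR-142-3p alone held 25.3% of the raw human counts. miR-20a/b read 4976 in Jurkat, 4361 in Meg01, 5053 in Raji, 13059 in K562 and 7799 in U937, and miR-19b had the same order of lines. Both were lower in Jurkat than in K562, by 2.62-fold for miR-20a/b (2.54 to 2.71) and 2.40-fold for miR-19b (2.31 to 2.49).

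Jurkat had the most probes above threshold, 229 against 111 in Raji and 178 to 185 in the other lines, and it had the highest total, 130048. Of the 229, 88 were above threshold in all 4 other lines, 41 in 3, 26 in 2, 27 in 1 and 47 in none. Most of those 47 sat at the edge of detection. Their median raw count was 38, and in 8 of 47 the 95% interval of the count lay above the Jurkat threshold of 35.0 raw counts. miR-150, miR-363 and let-7b had 1030, 732 and 512 raw counts, and the next of the 47, miR-548a-3p, had 68. The threshold fell in the middle of a dense range, with 15 probes at 36 raw counts, miR-122 and miR-1243 among them, just inside and 13 at 35, miR-1 and miR-153 among them, just outside. The raw thresholds of Meg01 and Raji were higher than that of Jurkat, 42.1 and 45.9, and their negative controls had larger SDs, 10.9 and 11.4 against 6.14 raw counts.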

How the data were processed

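The authors deposited raw counts per probe for each line, as read by the instrument. They also deposited signal values of the human probes, which are the same counts less a fixed number for each line, with 0 as the floor and without scaling; that number was 16.25 in Jurkat and 22.75 in K562, where the negative controls averaged 22.75 and 20.25 in that order. Profiling used the nCounter human miRNA assay.

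After the study's methods, each line was scaled by its geometric mean over the 100 probes with the highest mean count, and its threshold was 2 SD above the mean of its 8 negative controls. Nothing was subtracted before ratios were taken, so ratios of low probes are drawn towards the ratio of the backgrounds. With 1 sample per line no test was run. Single counts have exact Poisson 95% intervals, ratios of 2 counts conditional exact binomial ones (Clopper-Pearson), and a ratio with 1 line at its threshold is a bound; all cover counting error only. Human counts totaled 66892 to 130048 per line. Calculations used Python 3.11.15, pandas 2.3.3 and scipy 1.17.1 and were tested on counts drawn with known changes.

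The probes named are the 10 with the largest ratio of Jurkat over the highest other line, the 10 with the largest ratio of the lowest other line over Jurkat, the 3 largest in each direction per line, the 10 with the highest counts in Jurkat, those next to a threshold, and the extremes of 16 lists; members of seed families and neighboring genes of these were added after their values were seen. The miRNAs, lists and rules were chosen with earlier results of these data known. Sequences, chromosomes and gene neighbors (within 10 kb) come from RefSeq (GRCh38.p14), matched by name, with the arm from the study's table of names; the files name no build.

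Alternatives covered 5 scalings, 3 thresholds, subtraction of the negative controls, the deposited signals, other folds, leaving out a line and other choices of probes.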

Additional observations from a re-analysis of the deposited data

Results flagged for a closer look

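The panel also held 80 probes for virus miRNAs, which the comparison did not use. In Jurkat 17 of them were above the threshold set by the negative controls, against 8 to 19 in the other lines. The highest was ebv-miR-BART16, with 338 raw counts in Jurkat, 346 in Meg01, 329 in Raji, 249 in U937 and 316 in K562. No virus probe was over 2-fold higher in Jurkat than in every other line, and the largest ratio of Jurkat over the highest other line was 0.534, with lines below threshold entered at their threshold. What the counts of these probes come from was not tested. A count above threshold, of a virus or a human probe, does not by itself show that the target is present.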

How the results depend on the processing

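miR-150, miR-363, let-7b, miR-29c and miR-342-3p stayed more than 2-fold higher in Jurkat than in each other line under all 10 alternatives of scaling, threshold, subtraction and deposited signals, with ratios from 2.57 for miR-342-3p with the deposited signals to 22.7 for miR-150 with the threshold at the mean of the negative controls. miR-301a fell to 1.84-fold with scaling to the total and stayed past 2-fold in the other 9. miR-21 stayed past 2-fold in 9 and read 1.92-fold without scaling.

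The number of probes higher than in every line was 6, and it was 12 without scaling, 10 with the housekeeping probes and 10 at 1.5-fold. The number lower than in every line was 1. It was 0 without scaling and 0 at 3-fold, 2 with the threshold at the mean of the negative controls, with the deposited signals and at 1.5-fold, 7 when Raji was left out, and 2 when U937 or K562 was left out. Leaving out Raji added miR-1246, miR-125a-5p, miR-1979, miR-223, miR-23a and miR-24.

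With the threshold at the mean of the negative controls, 73 probes were past 2-fold against Meg01 and 171 against Raji, against 48 and 43; with a raw threshold of 30 there were 89 against Raji, and with the deposited signals 78 against Meg01 and 69 against Raji. Over the 88 probes above threshold in all 5 lines there were 23 against Meg01, 27 against Raji, 15 against U937 and 30 against K562, fewer because fewer probes were compared. Probes above threshold in Jurkat numbered 466 with the threshold at the mean, and those above in Jurkat only numbered 15 at the mean and 19 at a raw count of 30, against 47. Against Raji the share higher in Jurkat was 12.3%, 21.3% and 20.3% with the threshold at the mean, a raw count of 30 and the deposited signals, and 52.5% with the negative controls subtracted.

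Relative to the scaling used, the log2 ratio of every probe shifted by 0.97 against Raji without scaling, by 0.87 with the positive controls and by 0.98 with the housekeeping probes. The shifts against Meg01, U937 and K562 lay between -0.36 and 0.60. Of 199 ratios of the 20 highest and lowest probes under alternatives, 144 stayed within the counting interval and 55 moved beyond it. None of the ratios past 2-fold among these 20 probes changed direction. No scaling could have turned one, because the largest factor was 1.97. Cultures, RNA preparations and hybridizations were not replicated, so the counting intervals are the smallest error these ratios can have. No paired analysis was possible because each line had 1 sample.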
